A study of Homo sapiens with 4 samples.

Results

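The Fanconi anaemia and homologous recombination genes are described here in 2 human cancer cell lines treated with decitabine (DAC). They are 35 genes taken by symbol, with no cut on their values, from a table of 59533 analysed genes. The 35 were chosen with earlier results of these data known. They comprise 8 genes of the Fanconi core complex, 3 genes of the FANCD2-FANCI step, 5 of end resection, 5 of the BRCA complexes, 5 recombination paralogues (RAD51B, RAD51C, RAD51D, XRCC2 and XRCC3), 4 of strand exchange and 5 of joint-molecule dissolution and resolution. The lines are HCC1937, from a breast carcinoma, and THP-1, from a monocytic leukaemia. All 4 libraries came from cells that the labels call p53-/- and infected with p53-R282W, in which the tumour suppressor carries a missense change. The 4 groups, with 1 library each, were HCC1937 cells given 0.3 µM DAC for 5 days, untreated HCC1937 cells, THP-1 cells given 5 µM DAC for 2 days, and untreated THP-1 cells. The labels do not say whether the infected cells were a pool or a clone, and no library with empty vector is used here. DAC is a deoxycytidine analogue that is built into DNA and traps DNA methyltransferases there. The comparison the labels imply, in each line, is DAC against no treatment in the presence of that allele.

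As background, the Fanconi anaemia pathway repairs DNA interstrand crosslinks. Its core complex is a ubiquitin ligase that, with the conjugating enzyme UBE2T, attaches ubiquitin to FANCD2 and FANCI on damaged chromatin. Homologous recombination then restores the broken strand: the end is resected, BRCA2 acts with BRCA1 and PALB2 to form a protein filament on it, the filament invades the sister chromatid, and the joint molecules are dissolved or cut. Inherited loss of many of these genes causes Fanconi anaemia or breast and ovarian cancer, and HCC1937 is known as a line with no intact copy of BRCA1. Promoter methylation of BRCA1, RAD51C and FANCF has been described in some tumours. No methylation was measured here.

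The values are FPKM, that is, fragments scaled to the exon length of a gene and to the reads counted in its library. The spacing of the values put the depth at 18.7 M counted reads in each HCC1937 library, at 19.7 M in the DAC library of THP-1 and at 19.4 M in its untreated library. A level of 1 FPKM for 2 kb of exon thus stood for about 37.4 reads in HCC1937. Each group had a single library, so a difference within a line has no replicate check and no p-value and describes these libraries. The 95% intervals beside ratios are exact (Clopper-Pearson) intervals from estimated reads and cover counting error only. The THP-1 columns rest on other gene lengths than the HCC1937 columns, so levels are compared between lines only roughly. Estimated reads and intervals in THP-1 use 1 mean length correction for all genes. All 8 epithelial markers reached 1 FPKM in both HCC1937 libraries and all 10 myeloid markers did so in both THP-1 libraries. The myeloid markers summed to 11.2 FPKM with DAC and 9.71 FPKM untreated in HCC1937, with LYZ and CTSG at 0 in both. CD14 made up most of that sum, at 7.06 FPKM with DAC and 8.69 FPKM untreated, while CSF1R had 1.54 FPKM with DAC and 0.22 FPKM untreated and ITGAM 1.71 and 0.68 FPKM, in that order. The epithelial markers summed to 5.74 FPKM with DAC and 1.89 FPKM untreated in THP-1, with KRT5 and CLDN1 at 0 in both and KRT17 at 2.75 FPKM with DAC and 0.52 FPKM untreated. The part of such cells or transcripts in the results was not tested.

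The promoters of 5 of the genes are shown because the results turn on them. RAD51AP1 and XRCC2 had the largest differences in HCC1937, followed by BRCA1 and BRCA2. FANCF differed in opposite directions in the lines. Each is the RefSeq window on GRCh38.p14 from 250 bases before to 50 after a transcript start, 5′ to 3′ on the gene's strand. Every CG, the dinucleotide that DNA methyltransferases methylate, is in capitals. The windows lie at chr12:4538640-4538939 on the plus strand (RAD51AP1), chr7:152676092-152676391 on the minus strand (XRCC2), chr17:43125315-43125614 on the minus strand (BRCA1), chr13:32315258-32315557 on the plus strand (BRCA2) and chr11:22625774-22626073 on the minus strand (FANCF).
RAD51AP1: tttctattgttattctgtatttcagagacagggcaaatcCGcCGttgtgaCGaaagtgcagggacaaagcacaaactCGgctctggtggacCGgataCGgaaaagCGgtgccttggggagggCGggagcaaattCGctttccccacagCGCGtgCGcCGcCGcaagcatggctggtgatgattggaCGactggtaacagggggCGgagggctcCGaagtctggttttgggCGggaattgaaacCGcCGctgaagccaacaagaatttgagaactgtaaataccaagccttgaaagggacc
XRCC2: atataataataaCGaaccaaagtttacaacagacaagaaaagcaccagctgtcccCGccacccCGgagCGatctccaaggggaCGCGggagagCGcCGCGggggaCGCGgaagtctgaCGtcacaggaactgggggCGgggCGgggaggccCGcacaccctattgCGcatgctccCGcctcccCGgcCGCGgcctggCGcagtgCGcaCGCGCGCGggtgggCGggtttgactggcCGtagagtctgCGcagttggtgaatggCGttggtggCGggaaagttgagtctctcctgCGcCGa
BRCA1: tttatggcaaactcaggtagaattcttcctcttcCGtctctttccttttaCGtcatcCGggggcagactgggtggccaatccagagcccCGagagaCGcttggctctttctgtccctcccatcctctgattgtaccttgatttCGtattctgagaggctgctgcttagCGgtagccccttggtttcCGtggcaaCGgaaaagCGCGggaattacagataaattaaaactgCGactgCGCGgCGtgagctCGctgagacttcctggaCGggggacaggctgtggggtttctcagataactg
BRCA2: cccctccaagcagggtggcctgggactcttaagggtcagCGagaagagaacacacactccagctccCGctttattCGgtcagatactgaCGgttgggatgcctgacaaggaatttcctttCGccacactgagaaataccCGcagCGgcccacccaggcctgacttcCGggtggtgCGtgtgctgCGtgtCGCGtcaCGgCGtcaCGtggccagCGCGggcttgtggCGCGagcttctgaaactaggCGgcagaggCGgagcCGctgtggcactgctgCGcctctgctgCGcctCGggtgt
FANCF: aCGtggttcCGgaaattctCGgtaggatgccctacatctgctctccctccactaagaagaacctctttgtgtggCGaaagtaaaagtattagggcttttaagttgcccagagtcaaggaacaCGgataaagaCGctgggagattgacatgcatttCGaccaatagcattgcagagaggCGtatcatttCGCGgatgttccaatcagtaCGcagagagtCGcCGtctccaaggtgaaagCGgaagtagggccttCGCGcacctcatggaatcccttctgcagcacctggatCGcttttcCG
These windows held 20 CG in RAD51AP1, 33 in XRCC2, 17 in BRCA1, 25 in BRCA2 and 18 in FANCF. The BRCA1 window lies inside the gene as GENCODE 29 bounds it, with its start site 44881 bases from the outer gene start. A second BRCA1 window, at that outer start (chr17:43170278-43170577), held 13. The RefSeq table had 42 windows for 32 of the 35 genes, with a median of 26.5 CG and a range of 2 to 44 (the 2 in RAD51B windows whose start sites lie 3762 and 3813 bases inside the annotated gene), against a median of 14 over all 35116 windows. The letters TTTCCCGC, TTTCGCGC, TTTGCCGC or TTTGGCGC, spelled-out forms of the E2F motif, were searched on both strands. They stood in 6 of the 42 windows (14.3%), one each of FANCA, FANCC, FANCD2, EXO1, XRCC2 and RMI1, and in 3.31% of all windows. Each of these spellings holds a CG, and the genes' windows held more CG than all windows. The shares were not compared at equal CG content. In XRCC2 the match begins 21 bases after the start, within the run ggCGggaaag near the 3′ end of the printed window. CCAAT, the core of the NF-Y motif, stood on either strand in 35.7% of the genes' windows and in 34.6% of all windows. TTTGAA, the CHR motif of cell cycle genes, stood on either strand in 7.14% of the genes' windows and in 15.2% of all windows.

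In HCC1937 most of the genes stood higher with DAC, by small amounts. A gene was kept when it reached 1 FPKM in at least 1 library of the pair, which held for 34 of the 35. FANCB, FANCM, RAD50 and BRCA2 were kept only through the DAC library, so their direction was set by the filter. The difference, log2(FPKM + 1) with DAC minus untreated, was above 0 in 31 of the 34 and below 0 in FANCG, NBN and EME1. Over all 14058 kept genes 66.2% stood higher and 33.5% lower. The 34 kept Fanconi and recombination genes together summed to 244.62 FPKM with DAC and 187.84 FPKM untreated. The median difference was 0.34 over these 34 and 0.33 over all 35, against 0.19 over all 14058 kept genes. Of the 34, 25 lay above that all-gene median, where 50% of genes lie by construction. RAD51AP1 and XRCC2 stood at least 2-fold higher and none stood 2-fold lower, where 10.3% of kept genes were 2-fold higher and 1.44% lower. The count of 2 in 34 was thus not above the background. By the plain FPKM ratio, with no pseudocount, 5 genes were 2-fold higher (RAD51AP1, XRCC2, BRCA1, BRCA2 and FANCB) and none lower, against 17.5% and 2.96% of kept genes. In a bulk library, fewer cells of a type or cycle phase and less RNA per cell cannot be told apart.

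**Figure D1:**
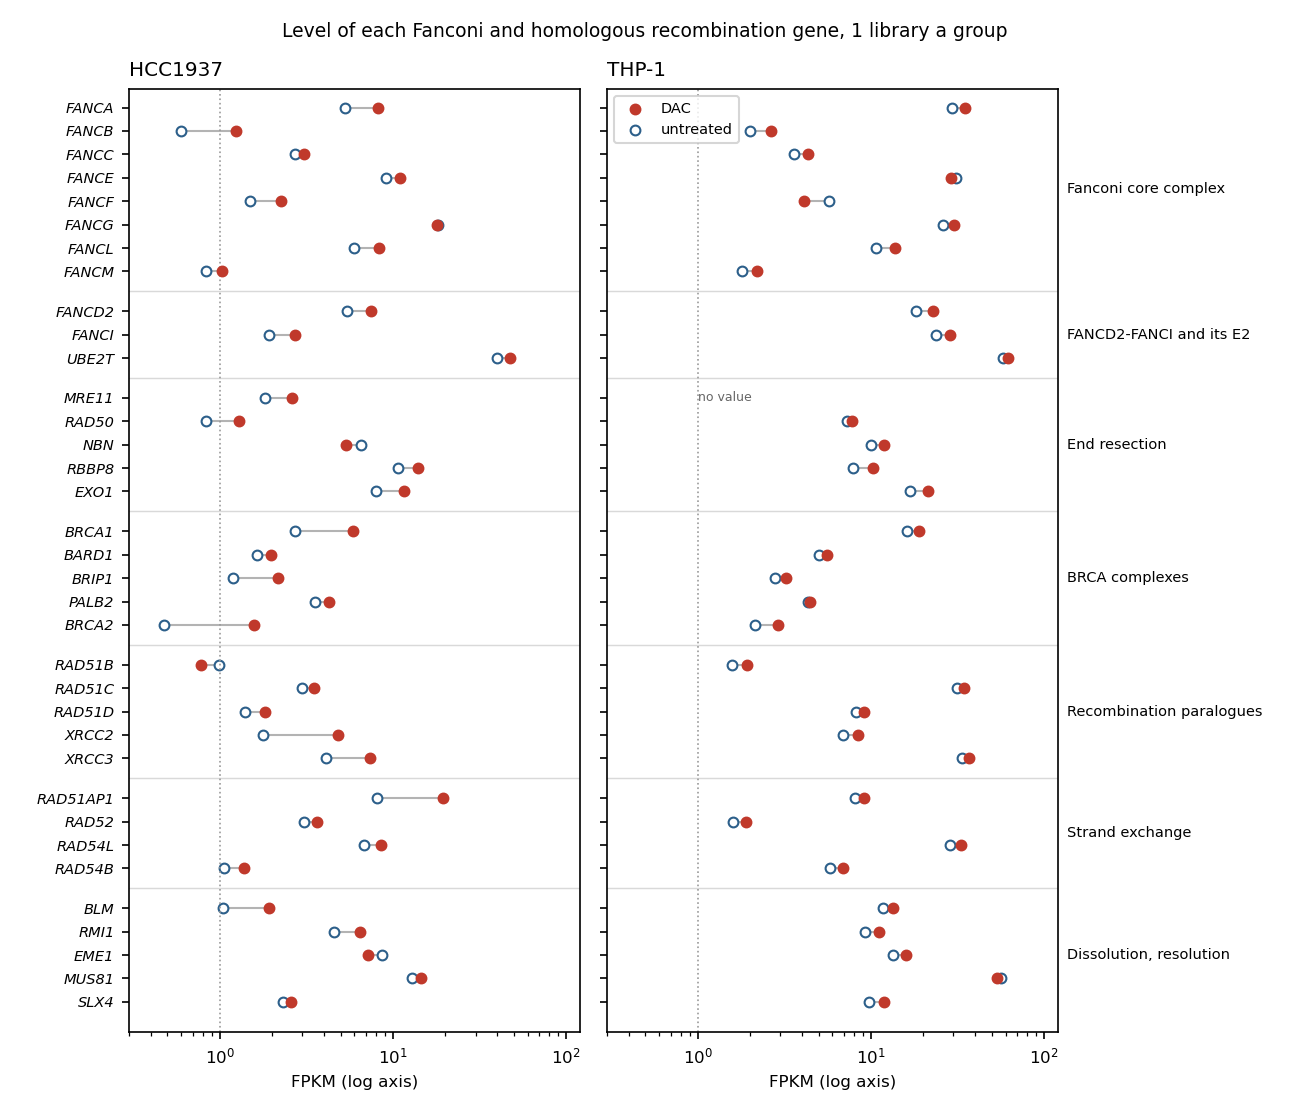
FPKM of each gene (log axis) in HCC1937 and THP-1, filled points for the DAC library, open points for the untreated library, a grey line joining the pair, and a dotted line at 1 FPKM. In HCC1937 the widest gaps are those of BRCA2, XRCC2, RAD51AP1 and BRCA1, while in THP-1 every pair lies close together and UBE2T, with 62.2 FPKM with DAC and 58.1 FPKM untreated, is the highest gene.

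Since the DAC library of HCC1937 was higher over most genes, the counts were also read against that shift. The median ratio of genes with 1 FPKM or more in both libraries was 1.11 in HCC1937 and 1.05 in THP-1. The counting interval of the ratio lay above 1 in 28 of the 34 genes kept in HCC1937 and below 1 in NBN and EME1, against 51.2% above and 21.7% below over all kept genes with a length. It lay above the median ratio in 19 and below it in FANCG, NBN and EME1, against 40.6% above and 30.6% below over those genes. In THP-1 the interval lay above 1 in 21 of 34 and below 1 in FANCF and MUS81, against 29.2% and 12.6%. It lay above the median ratio in 13 and below it in FANCE, FANCF and MUS81, against 17.6% and 20.9%. In both lines the share of these genes above the shift was larger than the share of all genes, a description of the list to which no test is attached. When the DAC library of HCC1937 was scaled down by the median of ratios over all genes above 0, 21 of the 33 genes then kept stood higher and 12 lower.

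**Figure D2:**
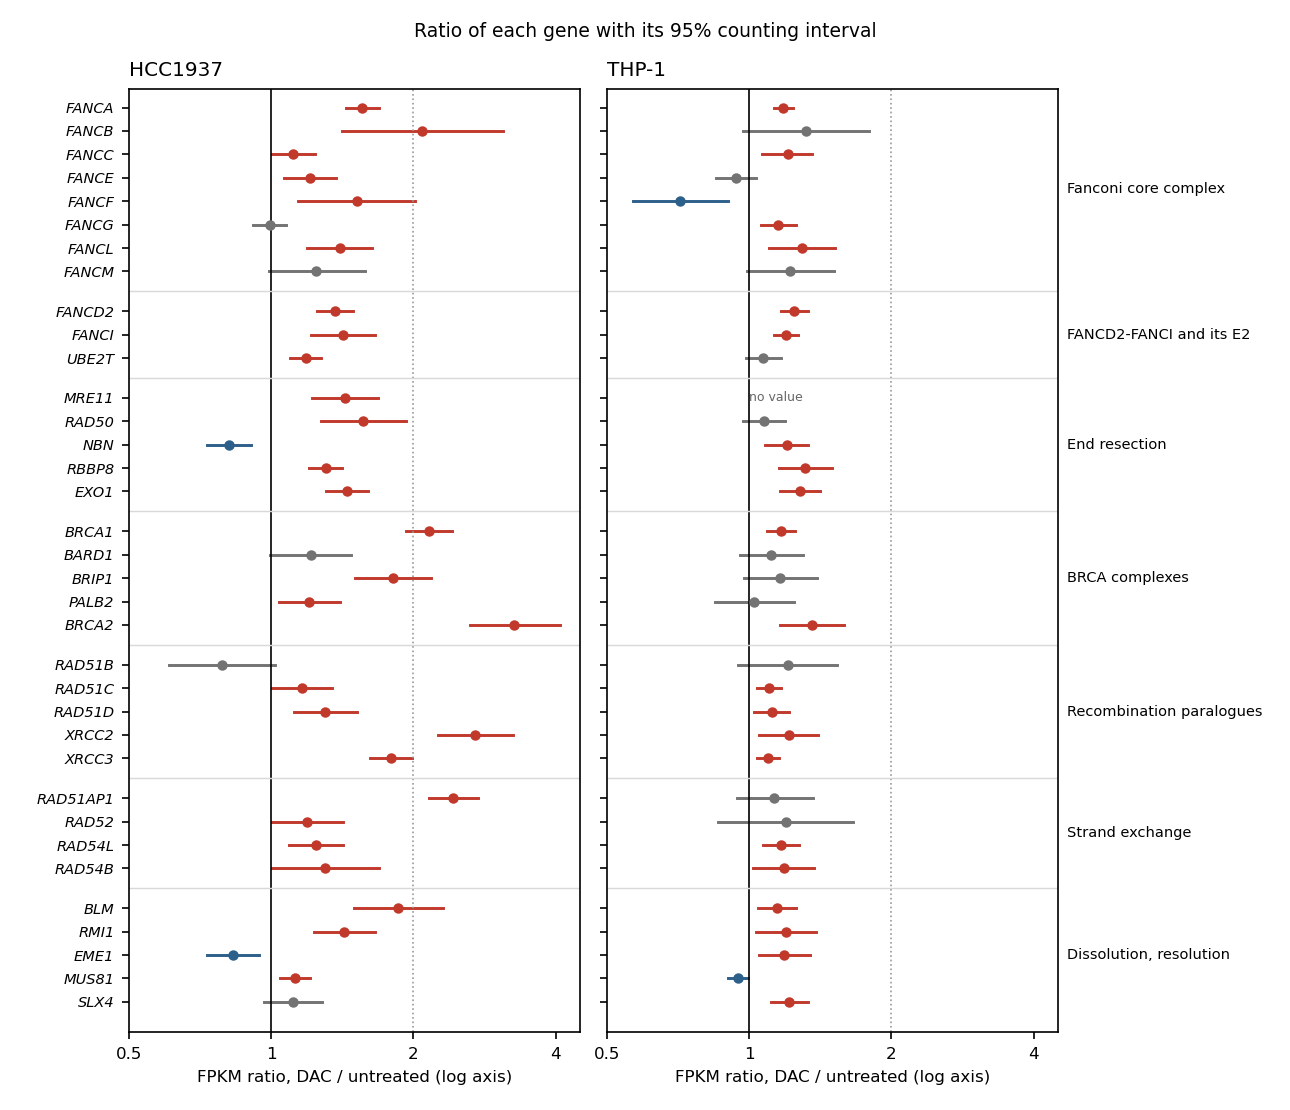
Ratio of FPKM, DAC over untreated (log axis), for each gene in HCC1937 and THP-1 with its 95% counting interval, red where the interval lies above 1, blue where below and grey where it holds 1. The solid line marks 1 and the dotted line 2. In HCC1937 28 intervals lie above 1, with BRCA2 farthest right at 3.27, and in THP-1 21 lie above 1 and no ratio exceeds that of BRCA2, 1.36.

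The genes of the Fanconi core complex differed little, and none passed 2-fold or 1.5-fold on log2(FPKM + 1) in either line. At 1.5-fold, 22% of all kept genes in HCC1937 were higher and 5.93% lower, and in THP-1 3.3% were higher and 1% lower. FANCA, a scaffold of the complex, stood at 8.25 FPKM with DAC and 5.29 FPKM untreated in HCC1937 and at 34.9 and 29.6 FPKM in THP-1, in the same order, with ratios of 1.56 (1.44 to 1.69) and 1.18 (1.13 to 1.24). FANCL, the ubiquitin ligase subunit, had 8.35 FPKM with DAC and 5.98 FPKM untreated in HCC1937, and 13.8 FPKM with DAC and 10.7 FPKM untreated in THP-1. Its ratio was 1.4 (1.19 to 1.63) in HCC1937 and 1.29 (1.10 to 1.52) in THP-1, so both lines gave a higher value by more than counting error. FANCB, an X-linked subunit that binds FANCL, was low in HCC1937, with 1.25 FPKM with DAC and 0.60 FPKM untreated, or about 85 and 41 reads. Its ratio of 2.08 had a wide interval of 1.41 to 3.09. In THP-1 FANCB stood at 2.66 FPKM with DAC and 2.02 FPKM untreated, with an interval of 0.971 to 1.79 that holds 1.

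FANCF, the adaptor that links the complex to FANCM, was the core gene whose lines differed most. In HCC1937 it stood at 2.26 FPKM with DAC and 1.49 FPKM untreated, a ratio of 1.52 (1.14 to 2.02), and in THP-1 at 4.12 FPKM with DAC and 5.76 FPKM untreated, a ratio of 0.715 (0.568 to 0.903). These intervals lie on opposite sides of 1, on about 127 reads with DAC and 84 untreated in HCC1937 and 131 with DAC and 180 untreated in THP-1. In THP-1 its log2 difference of -0.40 lay below that of 97.7% of kept genes. FANCE, which joins the complex to FANCD2, had 11.0 FPKM with DAC and 9.12 FPKM untreated in HCC1937 and 28.9 FPKM with DAC and 30.8 FPKM untreated in THP-1. FANCG, a partner of FANCA, had 18.0 FPKM with DAC and 18.1 FPKM untreated in HCC1937, a ratio of 0.993 (0.917 to 1.07), and 30.25 FPKM with DAC and 26.3 FPKM untreated in THP-1. FANCC, with 3.05 FPKM with DAC and 2.74 FPKM untreated in HCC1937, and FANCM, the DNA translocase that anchors the complex, with 1.03 and 0.83 FPKM in that order, had intervals reaching down to 1.00 and 0.988. In THP-1 FANCC stood at 4.34 FPKM with DAC and 3.60 FPKM untreated and FANCM at 2.20 and 1.80 FPKM, again with DAC before untreated.

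FANCD2 and FANCI, the pair that receives ubiquitin, were higher with DAC in both lines by more than counting error. FANCD2 had 7.46 FPKM with DAC and 5.47 FPKM untreated in HCC1937, a ratio of 1.36 (1.25 to 1.49), and 22.7 FPKM with DAC and 18.2 FPKM untreated in THP-1, a ratio of 1.25 (1.17 to 1.33). FANCI had 2.72 FPKM with DAC and 1.92 FPKM untreated in HCC1937, a ratio of 1.42 (1.21 to 1.66), and 28.6 FPKM with DAC and 23.9 FPKM untreated in THP-1, a ratio of 1.20 (1.13 to 1.27). The log2 differences of both lay between 0.25 and 0.39, below the 1.5-fold line in either cell line. UBE2T, their conjugating enzyme, was the most abundant of the 35 genes in all 4 libraries. It stood at 47.2 FPKM with DAC and 39.9 FPKM untreated in HCC1937, a ratio of 1.18 (1.10 to 1.28), and at 62.2 FPKM with DAC and 58.1 FPKM untreated in THP-1, a ratio of 1.07 (0.983 to 1.17).

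Among the end resection genes, EXO1 and RBBP8 were higher in both lines and NBN differed between them. EXO1, the exonuclease of long-range resection, had 11.6 FPKM with DAC and 8.04 FPKM untreated in HCC1937, a ratio of 1.45 (1.31 to 1.60), and 21.5 FPKM with DAC and 16.8 FPKM untreated in THP-1, a ratio of 1.28 (1.16 to 1.41). RBBP8, which encodes the resection factor CtIP, had 14.0 FPKM with DAC and 10.8 FPKM untreated in HCC1937, a ratio of 1.30 (1.20 to 1.41). In THP-1 RBBP8 stood at 10.35 FPKM with DAC and 7.87 FPKM untreated, and its log2 difference of 0.36 was the largest of the 34 genes there. Only 8.92% of kept THP-1 genes had a larger one. MRE11, RAD50 and NBN encode the complex that first binds broken ends, and they did not differ in 1 direction in HCC1937. MRE11, its nuclease, had 2.62 FPKM with DAC and 1.83 FPKM untreated (ratio 1.43, 1.22 to 1.68), with no value in THP-1. RAD50, its tether, had 1.30 FPKM with DAC and 0.83 FPKM untreated (ratio 1.57, 1.27 to 1.93). NBN, the subunit that recruits the ATM kinase, had 5.33 FPKM with DAC and 6.56 FPKM untreated (ratio 0.812, 0.730 to 0.904). In THP-1 NBN stood at 12.0 FPKM with DAC and 9.98 FPKM untreated, a ratio of 1.20 (1.08 to 1.33), and RAD50 at 7.83 FPKM with DAC and 7.29 FPKM untreated, with an interval of 0.973 to 1.19. RAD50 shares 79.7% of its exon bases with a same-strand locus in GENCODE 29, so its reads may have been split in counting.

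BRCA1 and BRCA2 had the largest differences of the BRCA complexes, both in HCC1937. BRCA1, the ubiquitin ligase that promotes resection (ENSG00000012048.21, chr17:43044295-43170245, minus strand), stood at 5.88 FPKM with DAC and 2.73 FPKM untreated, about 1026 and 476 reads. The ratio was 2.15 (1.93 to 2.41) and the log2 difference 0.88, which 12.1% of kept genes exceeded. In THP-1 it stood at 18.9 FPKM with DAC and 16.2 FPKM untreated, a ratio of 1.17 (1.09 to 1.25). BRCA2, which helps to build the filament (ENSG00000139618.14, chr13:32315474-32400266, plus strand), was among the lowest genes in HCC1937, with 1.57 FPKM with DAC and 0.48 FPKM untreated, about 366 and 112 reads. Its ratio of 3.27 (2.64 to 4.08) was the largest of all 35, while its log2 difference with 1 FPKM added was 0.80, since the pseudocount shrinks differences at such levels. In THP-1 BRCA2 had 2.92 FPKM with DAC and 2.15 FPKM untreated, a ratio of 1.36 (1.16 to 1.59), which was the largest ratio of the 34 genes there. The filter kept BRCA2 in HCC1937 through its DAC value alone.

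The partners of BRCA1 and BRCA2 differed less. BRIP1, the helicase also named FANCJ, had 2.17 FPKM with DAC and 1.20 FPKM untreated in HCC1937, a ratio of 1.81 (1.5 to 2.18), and 3.26 FPKM with DAC and 2.81 FPKM untreated in THP-1, with an interval of 0.975 to 1.39. BARD1, the ring-finger partner of BRCA1, had 1.99 FPKM with DAC and 1.64 FPKM untreated in HCC1937 and 5.59 FPKM with DAC and 5.02 FPKM untreated in THP-1. PALB2, the bridge between BRCA1 and BRCA2, had 4.30 FPKM with DAC and 3.57 FPKM untreated in HCC1937 and 4.43 FPKM with DAC and 4.32 FPKM untreated in THP-1. The intervals of BARD1 hold 1 in both lines, from 0.995 to 1.48 and from 0.956 to 1.30, while that of PALB2 runs from 1.04 to 1.4 in HCC1937 and from 0.848 to 1.24 in THP-1. The counting intervals of BRCA1 and its partner BARD1 do not meet in HCC1937, a difference between genes that was not tested.

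The recombination paralogues split within HCC1937. XRCC2 (ENSG00000196584.2, chr7:152644779-152676165, minus strand), the paralogue that pairs with RAD51D, stood at 4.83 FPKM with DAC and 1.79 FPKM untreated, about 445 and 165 reads. Its log2 difference of 1.06 passed 2-fold and was exceeded by 9.12% of kept genes, and its ratio was 2.70 (2.25 to 3.24). XRCC3, which pairs with RAD51C, had 7.36 FPKM with DAC and 4.11 FPKM untreated, a ratio of 1.79 (1.62 to 1.98). RAD51D had 1.82 FPKM with DAC and 1.4 FPKM untreated, a ratio of 1.30 (1.12 to 1.52), and RAD51C had 3.49 and 3.0 FPKM, in that order, a ratio of 1.16 (1.00 to 1.35). RAD51B was lower, at 0.78 FPKM with DAC and 0.99 FPKM untreated, with an interval of 0.608 to 1.02. The counting intervals of XRCC2 and RAD51D, which form 1 complex with RAD51B and RAD51C, do not overlap. They cover counting error in a single pair of libraries, and the difference between the genes was not tested. In THP-1 no such split was present, since all 5 paralogues had ratios between 1.10 and 1.21. There XRCC2 stood at 8.42 FPKM with DAC and 6.95 FPKM untreated, XRCC3 at 36.75 and 33.6 FPKM, RAD51C at 34.5 and 31.3 FPKM, RAD51D at 9.17 and 8.22 FPKM, and RAD51B at 1.92 and 1.59 FPKM, each with DAC before untreated. XRCC3 shares 76.7% of its exon bases with KLC1 on the other strand, and since strand use in counting is not given in the sources used here, reads of the pair cannot be told apart.

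RAD51AP1 had the largest log2 difference of the 35 genes, in HCC1937. It encodes a DNA-binding protein that helps the filament to pair with the sister chromatid (ENSG00000111247.14, chr12:4538798-4560048, plus strand). It stood at 19.6 FPKM with DAC and 8.05 FPKM untreated, about 950 and 391 reads, a ratio of 2.43 (2.16 to 2.74) and a log2 difference of 1.18 that 7.18% of kept genes exceeded. In THP-1 RAD51AP1 had 9.13 FPKM with DAC and 8.07 FPKM untreated, a ratio of 1.13 (0.942 to 1.37). The THP-1 interval holds 1 and does not meet that of HCC1937, a difference between the lines that was not tested. The other strand exchange genes differed less. RAD54L and RAD54B, translocases that act on the filament, had 8.49 and 1.38 FPKM with DAC and 6.84 and 1.06 FPKM untreated in HCC1937, with ratios of 1.24 (1.09 to 1.42) and 1.30 (1.00 to 1.69). In THP-1 RAD54L stood at 33.3 FPKM with DAC and 28.6 FPKM untreated and RAD54B at 6.89 FPKM with DAC and 5.82 FPKM untreated. RAD52, an annealing protein, had 3.65 FPKM with DAC and 3.06 FPKM untreated in HCC1937 and 1.91 FPKM with DAC and 1.60 FPKM untreated in THP-1. RAD54L shares 25.1% of its exon bases with LRRC41, RAD54B shares 59.1% with FSBP and FANCA shares 23.6% with ZNF276, and 16 of the 35 genes share none with another gene.

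The genes that undo joint molecules held both directions. BLM, the helicase of the dissolvasome, had 1.93 FPKM with DAC and 1.04 FPKM untreated in HCC1937, a ratio of 1.86 (1.5 to 2.31), and 13.5 FPKM with DAC and 11.7 FPKM untreated in THP-1, a ratio of 1.15 (1.04 to 1.26). Its partner RMI1 had 6.5 FPKM with DAC and 4.55 FPKM untreated in HCC1937, a ratio of 1.43 (1.23 to 1.66), and 11.1 FPKM with DAC and 9.28 FPKM untreated in THP-1. The dissolution genes thus stood higher in both lines by more than counting error. In THP-1, however, their intervals reach down to 1.044 in BLM and 1.035 in RMI1. Both lie below the median ratio there, 1.052, of genes with 1 FPKM or more in both libraries. MUS81 and EME1 encode the subunits of 1 structure-specific nuclease, and their directions were opposite within each line. EME1 had 7.17 FPKM with DAC and 8.63 FPKM untreated in HCC1937, a ratio of 0.831 (0.730 to 0.942), and 15.9 FPKM with DAC and 13.4 FPKM untreated in THP-1, a ratio of 1.19 (1.05 to 1.35). MUS81 had 14.5 FPKM with DAC and 12.9 FPKM untreated in HCC1937, a ratio of 1.12 (1.04 to 1.21), and 53.2 FPKM with DAC and 56.2 FPKM untreated in THP-1, a ratio of 0.948 (0.902 to 0.996). Under median-of-ratios scaling the log2 difference of MUS81 in HCC1937 was -0.11, so its direction there depends on the scaling. SLX4, the nuclease scaffold, had 2.57 FPKM with DAC and 2.31 FPKM untreated in HCC1937 and 11.9 FPKM with DAC and 9.79 FPKM untreated in THP-1.

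By role, the median log2 difference in HCC1937 was 0.53 in the BRCA complexes, 0.47 in the 4 kept recombination paralogues, 0.35 in end resection, 0.35 in the FANCD2-FANCI step, 0.32 in the core complex, 0.24 in strand exchange and 0.16 in dissolution and resolution. In THP-1 the medians lay closer together. They were 0.16 in the BRCA complexes, 0.14 in the paralogues, 0.29 in end resection, 0.25 in the FANCD2-FANCI step, 0.21 in the core complex, 0.19 in strand exchange and 0.23 in dissolution and resolution. The BRCA complexes and the paralogues, highest of the roles in HCC1937, were thus the lowest of them in THP-1. No difference between roles was tested, as each holds 3 to 8 genes.

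The differences in THP-1 were small. All 34 with a value were kept, and none passed 2-fold, where 1.14% of 12075 kept genes were 2-fold higher and 0.364% lower. By the plain ratio none passed either, against 2.61% higher and 0.845% lower. Of the 34, 31 stood higher and FANCF, FANCE and MUS81 lower, against 65% higher and 34.7% lower over all kept genes. The sum was 569.11 FPKM with DAC and 509.22 FPKM untreated, and the median log2 difference was 0.20 against 0.07 over all kept genes, with 30 of 34 above it. As deposited, that median was below the 0.34 of HCC1937, but the order depends on the scaling. It was 0.12 in THP-1 against 0.14 in HCC1937 under median-of-ratios scaling, and 0.16 in THP-1 against 0.12 in HCC1937 under upper-quartile scaling. Dose and duration also differed between the lines, so the size of the differences is given side by side and cannot be put down to the line.

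**Figure D3:**
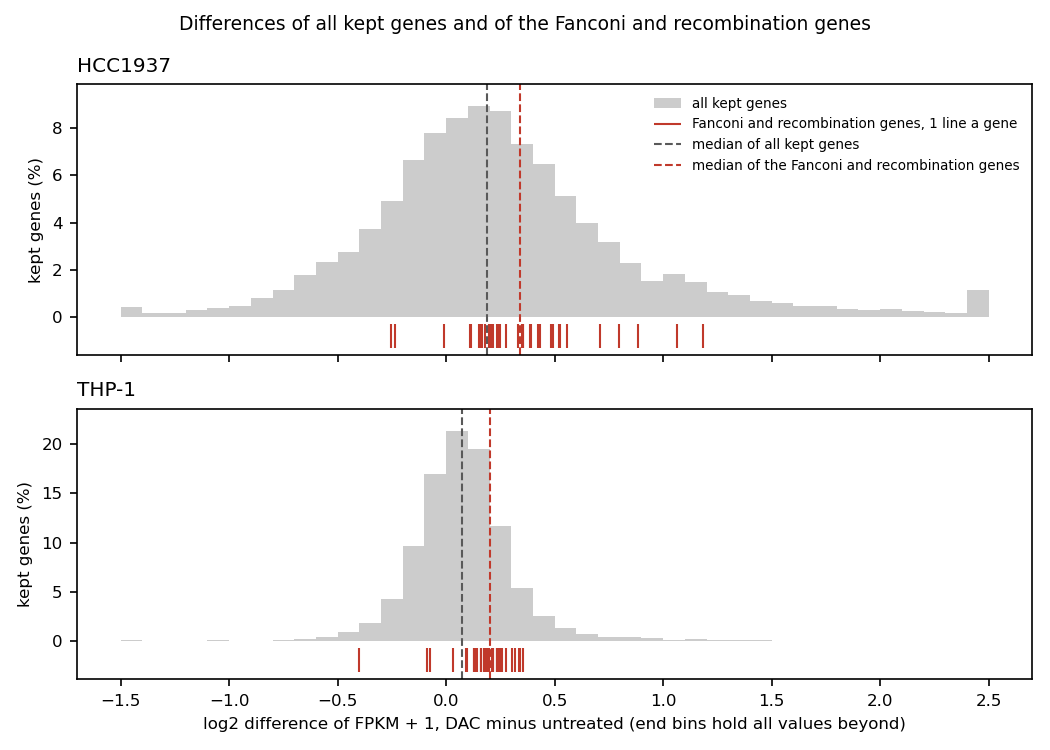
Share of all kept genes (%) by log2 difference of FPKM + 1, DAC minus untreated, in HCC1937 (top) and THP-1 (bottom), with 1 red line for each kept Fanconi or recombination gene and dashed lines at the medians. The medians of the genes, 0.34 in HCC1937 and 0.20 in THP-1, lie to the right of those of all kept genes, 0.19 and 0.07, and well within their distribution.

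Of the 33 genes kept in both lines, 27 stood higher with DAC in both and none lower in both, against 45.9% and 16.6% of the 9798 genes kept in both. FANCE, FANCF and MUS81 were higher in HCC1937 and lower in THP-1, and FANCG, NBN and EME1 the reverse. The difference was larger in HCC1937 in 25 of the 33, against 57.4% of all genes. Both counts depend on the scaling. Under median-of-ratios scaling 19 of 32 genes were higher in both lines, FANCE, PALB2 and MUS81 were lower in both, and 15 differed more in HCC1937, against 21.8%, 37.2% and 40.8% of all genes. Under upper-quartile scaling 18 of 32 were higher in both, the same 3 genes were lower in both, and 12 differed more in HCC1937, against 23.9%, 32.9% and 35.5%. Across the 34 genes with both values, the differences of the lines had a Spearman rho of 0.18 and a Pearson r of 0.10, a description over genes that share their libraries. The untreated levels of the lines had a rho of 0.67 over the same genes. A limma fit over both lines with the line as a block, on 1 residual degree of freedom, called none of the 33 and none of the 9798 genes after Benjamini-Hochberg adjustment, with an adjusted p of 0.642 or more for each of the 33. Without adjustment 625 genes (6.38%) passed 0.05, among them 5 of the 33, a number that was 0 under median-of-ratios scaling or without the line as a block and 2 under upper-quartile scaling. These were RAD51AP1 (mean log2 difference 0.67, SE 0.27), XRCC2 (0.65, SE 0.24), BRCA2 (0.56, SE 0.22), BRCA1 (0.55, SE 0.22) and EXO1 (0.41, SE 0.16). All 5 were higher in both lines, as were 27 of the 33, and none passed the adjustment. A low p in this fit favours genes that differ alike in both lines, so their shared direction is no separate result. The residual of this fit is the difference in response between the lines, whose dose and duration were unlike. Its SE and p-values thus do not measure error between replicates.

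The genes with E2F letters in a promoter window, 6 in number, were higher in both lines as deposited. So were 27 of the 33 genes kept in both lines, with or without the letters, and 45.9% of all genes kept in both. FANCC was lower in HCC1937 under median-of-ratios scaling, at -0.10, and under upper-quartile scaling, at -0.11. In HCC1937 the log2 differences of the 6 ran from 0.11 in FANCC to 1.06 in XRCC2 with a median of 0.46. The median was 0.26 over the 26 with windows and no such letters. Of these 26, 23 were higher, against 66.2% of all kept genes. In THP-1 the medians were 0.24 with the letters and 0.16 over the 25 without. Of these 25, 22 were higher, against 65% of all kept genes. RAD51B, which was not kept, is among those without in HCC1937. The ranges overlap in both lines. RAD51AP1, BRCA1 and BRCA2, whose promoters are printed above, hold none of these letters in their windows. Only the exact letters were searched, so a site with a near spelling would not be counted.

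Other gene groups give the context of these values. Their counts in HCC1937 are to be read beside those of all kept genes there. Of these 66.2% stood higher and 33.5% lower, with 10.3% 2-fold higher and 1.44% 2-fold lower. A further 46 Fanconi and recombination genes outside the 35, of which 43 were kept in HCC1937, had a median log2 difference of 0.32 there, with 38 higher, 5 lower and none past 2-fold. RMI2, the third subunit of the BLM complex, had 8.62 FPKM with DAC and 4.09 FPKM untreated, ERCC1, a crosslink nuclease subunit, 13.6 and 6.88 FPKM, and RPA2, a single-strand binding subunit, 43.3 and 23.4 FPKM, with DAC before untreated. Of 31 checkpoint and ubiquitin signalling genes 27 were kept, 24 higher and 3 lower, with a median of 0.34. TIPIN, a fork protection factor, was the single one past 2-fold, with 8.03 FPKM with DAC and 3.30 FPKM untreated. CLSPN, which activates CHK1, had 6.44 FPKM with DAC and 2.82 FPKM untreated, and TOPBP1, which activates ATR, had 16.5 FPKM with DAC and 8.58 FPKM untreated.

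All 38 DNA replication genes were kept in HCC1937, 37 higher and 1 lower, with a median of 0.38 and none past 2-fold. Over all kept genes 66.2% stood higher, 33.5% lower and 10.3% 2-fold higher. Against the median ratio of genes with 1 FPKM or more in both libraries, the counting interval lay above in 29 and below in 1. Over all kept genes with a length these shares were 40.6% and 30.6%. Among them CDC6, the origin licensing factor, had 35.1 FPKM with DAC and 17.7 FPKM untreated, RFC3, a clamp loader subunit, 32.7 and 17.5 FPKM, and UHRF1, which guides maintenance methylation, 31.6 and 17.0 FPKM, with DAC before untreated. The replication genes were thus higher together with the Fanconi and recombination genes in HCC1937, and their part in that result was not tested. The 28 G2/M genes had a median of 0.16, against 0.19 over all kept genes, with 21 higher and 7 lower. Their counting intervals lay above the median ratio in 11 and below it in 8. Among them HMMR, a spindle protein, stood at 35.9 FPKM with DAC and 17.8 FPKM untreated. The proliferation marker MKI67 stood at 44.4 FPKM with DAC and 25.6 FPKM untreated. The cyclin-dependent kinase inhibitor CDKN1A (p21) had 111 FPKM with DAC and 53.03 FPKM untreated. The other repair routes lay lower. End joining had 10 of 12 genes kept and mismatch repair all 7, each with a median of 0.14, and none past 2-fold. Of the end joining genes 7 were higher and 3 lower, and of the mismatch repair genes 5 were higher and 2 lower. Over all kept genes the shares were 66.2% and 33.5%. PRKDC, the catalytic kinase of end joining, had 24.4 FPKM with DAC and 16.3 FPKM untreated, the polymerase gene POLM 3.64 FPKM with DAC and 2.37 FPKM untreated, and PAXX, an accessory factor, 33.6 FPKM with DAC and 52.2 FPKM untreated.

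In THP-1 the 35 genes and the replication genes did not keep the same order. The median was 0.20 for the 34 Fanconi and recombination genes, 0.07 for the 40 kept of the further list, 0.15 for 25 checkpoint genes, 0.12 for 10 end joining and 7 mismatch repair genes, 0.09 for 38 replication genes and -0.04 for 28 G2/M genes. Over all kept THP-1 genes the median was 0.07. None of these lists held a gene past 2-fold, where 1.14% of kept genes were 2-fold higher and 0.364% lower. MCM8, a recombination helicase, had 8.31 FPKM with DAC and 5.29 FPKM untreated, CCNE2, the S-phase cyclin E2, 11.6 and 8.34 FPKM, and CDC20, the mitotic exit activator, 384.59 and 493.26 FPKM, with DAC before untreated. The medians were not tested against each other.

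**Figure D4:**
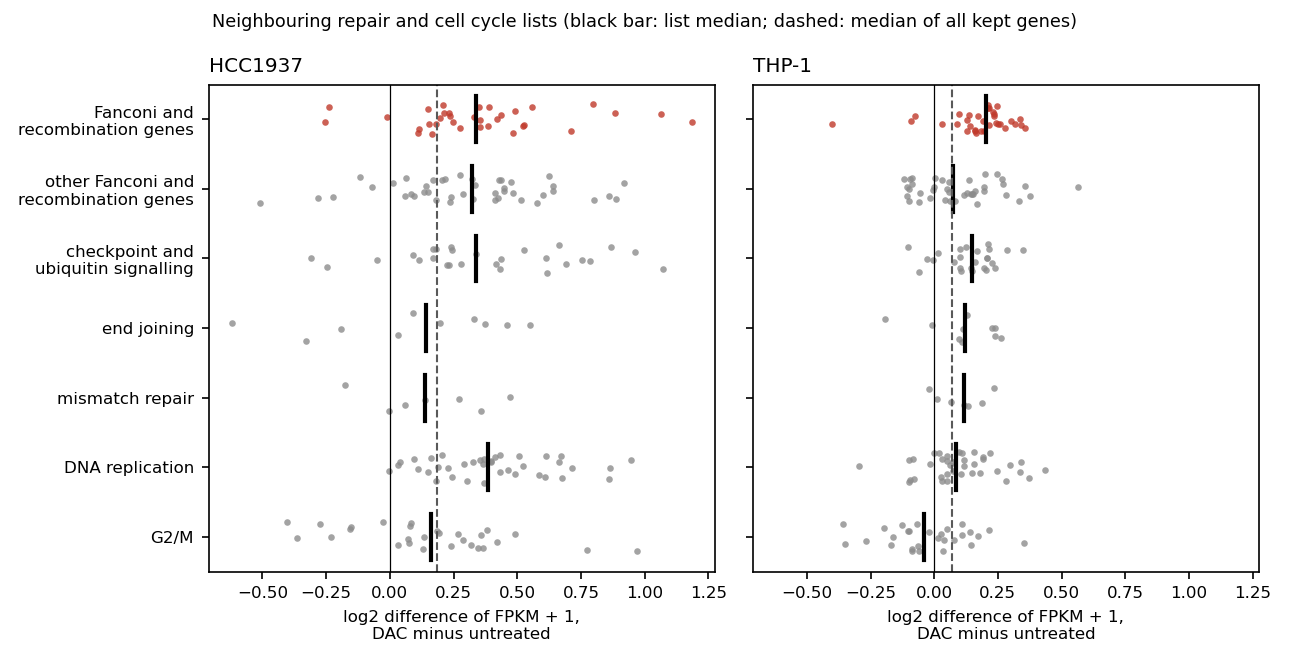
Log2 difference of FPKM + 1, DAC minus untreated, for each kept gene of 7 lists in HCC1937 and THP-1, 1 point a gene, with a black bar at the list's median and a dashed line at the median of all kept genes. In HCC1937 the Fanconi and recombination genes (median 0.34) lie beside the checkpoint (0.34) and replication genes (0.38), and in THP-1 they have the highest median of the 7, 0.20.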

How the data were processed

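RNA was sequenced in 4 libraries, 1 per group, with Illumina TruSeq libraries made from mRNA, per the labels' protocols. The tools named in the submitters' processing notes are STAR, HTSeq, cutadapt and FastQC, with the build hg38. Versions, the annotation and strand use are not given in the sources used here. No unit is named in the deposited table, and the authors' values were read as FPKM, since for short genes (50 to 250 bp of exon, GENCODE 29) value times length fell on whole multiples of 1 step, within 0.1, in 91.6% to 94.5% of genes. In THP-1, 37039 of 60612 lines are without a value, and the rest imply other gene lengths. Lines of 76 repeated symbols (1079 lines) were left out, and 23440 of the 59533 genes analysed had THP-1 values.

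Differences were taken as log2(FPKM + 1) without rescaling, after the filter at 1 FPKM. Reads were estimated from FPKM, exon length (54865 genes had one) and depth, and divided by 1 mean length factor per line. That factor is the reads these lengths imply over the reads counted. It was 0.983 and 0.987 in the HCC1937 libraries and 1.84 and 1.83 in those of THP-1, with DAC before untreated. The length used for each gene in THP-1 is not known, so its reads and counting intervals rest on that mean. The limma 3.58.1 fit in R 4.3.3, on genes reaching 1 FPKM in a library of each line, used an intensity trend and a threshold of 0.05. A looser filter was dropped for it after a test on simulated data, where it recovered no change. The remaining computation was done in Python 3.11.15 with scipy 1.17.1, numpy 2.4.6 and pandas 2.3.3, and plots in matplotlib 3.10.9. The genes and lists were chosen with earlier results of these data known. All 35 genes were named, and of each other list those past 2-fold or up to 3 per line with the largest difference, beside CDKN1A, of which the text prints a part. Some items are not reported here. Promoters came from RefSeq, and positions of genes from GENCODE 29 on hg38. Alternatives were other scalings, filters, pseudocounts, sizes of change and fits. The plain FPKM ratio, the median ratio of genes expressed in both libraries, the looser limma filter and the counts over both lines under each scaling were added after seeing the data.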

Additional observations from a re-analysis of the deposited data

Results flagged for a closer look

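In 6 of the Fanconi and recombination genes the single HCC1937 pair and the single THP-1 pair differed in opposite directions. With 1 library per group the difference between the lines was not tested for any of them, and dose and duration also differed. As log2 differences of FPKM + 1, DAC minus untreated, FANCE had 0.25 in HCC1937 and -0.09 in THP-1, FANCF 0.39 and -0.40, and MUS81 0.16 and -0.08, in that order of lines. FANCG had -0.01 in HCC1937 and 0.20 in THP-1, NBN -0.26 and 0.24, and EME1 -0.24 and 0.23. The counting intervals of the ratio lie wholly on opposite sides of 1 in FANCF, NBN, EME1 and MUS81. FANCE and MUS81 were below 0 in HCC1937 as well under median-of-ratios scaling, at -0.01 and -0.11, and under upper-quartile scaling, at -0.03 and -0.13.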

How the results depend on the processing

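The number of genes 2-fold higher in HCC1937, 2 as reported, was 0 under median-of-ratios scaling, upper-quartile scaling and a pseudocount of 10, 1 when scaled on genes with 1 FPKM or more in both libraries or filtered at 5 FPKM, 4 with a pseudocount of 0.1, and 5 at 1.5-fold or by the plain FPKM ratio. By the counting interval it was 28 against a ratio of 1 (2 lower). Against the median ratio of genes with 1 FPKM or more in both libraries it was 19 (3 lower). In THP-1, where it was 0, the interval gave 21 (2 lower) and 13 (3 lower). The median difference in HCC1937 moved to 0.14 and 0.12 under the first 2 scalings and to 0.095 with a pseudocount of 10, and that in THP-1 to 0.10 with a pseudocount of 10. The median of all kept genes in HCC1937 was 0.19 as deposited and -0.07, 0.06 and -0.09 under median-of-ratios scaling over genes above 0, over genes with 1 FPKM or more in both libraries, and upper-quartile scaling, and the genes lay 0.15 above it as deposited and 0.20, 0.19 and 0.20 above it under these. The share higher among all 2-fold genes was 87.8% as deposited and 69.8%, 81.0% and 67.5% under these. In HCC1937 FANCC, FANCE, FANCM, UBE2T, BARD1, PALB2, RAD51C, RAD52, MUS81 and SLX4 turned negative under at least 1 scaling, and in THP-1 PALB2. RAD51AP1 and XRCC2 fell short of 2-fold at 0.91 and 0.83 under median-of-ratios scaling. In the limma fit without the line as a block, 0 genes were called (27 of all genes at an unadjusted p under 0.05), and no fit called any of the 33. At an unadjusted p under 0.05 there were 5 of the 33 as reported, 0 under median-of-ratios scaling or without the block, 1 without a filter or with the looser one, 2 under upper-quartile scaling, without the trend or with a pseudocount of 0.1, and 6 with a pseudocount of 10. Scaling by the median of ratios called 1 other gene and by the upper quartile 9. No replicate could be left out, since each group has 1 library.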
